A study of Mus musculus with 48 samples.

Results

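The change described here is that of the mouse hypothalamus and preoptic area between the day of birth, postnatal day 0 (P0), and postnatal day 21 (P21), about the age of weaning. The 4 arrays labelled P21 were compared with the 4 labelled P0, chosen by their age labels alone out of 48 arrays in the series. The series is an atlas of hypothalamic development on Affymetrix MOE430 arrays, made from microdissected tissue of animals on standard chow and a light-dark cycle. At each age there is 1 array for each combination of strain (the inbred C57Bl/6 and the outbred CD-1) and sex, so both groups hold a C57Bl/6 female, a C57Bl/6 male, a CD-1 female and a CD-1 male array. No genotype other than strain and no treatment is given in the labels, and they do not say how many animals went into an array, when in the day tissue was taken or whether pups of an age shared a litter. The p-values below therefore measure spread between arrays, not between known animals or litters. In the main fit that spread was taken around age, strain and sex over all 48 arrays, not over the P0 and P21 arrays alone.

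The hypothalamus holds neurons that set feeding, drinking, body temperature, stress hormone release, reproduction and daily rhythm. Most of them have left the cell cycle before birth in the mouse, but their axons, dendrites, channels and synapses mature afterwards, while astrocytes and oligodendrocytes multiply and differentiate around them. Sodium channels, receptor subunits and vesicle proteins are in many brain regions exchanged for adult family members in these weeks, and the suckling pup, which lives on fat-rich milk and uses ketone bodies, turns toward glucose at weaning. Channels, receptors, enzymes and transcription factors are therefore described first, and glial and peptide genes are given where a result touches them. The tissue was bulk, so fewer cells of a type and less RNA per cell cannot be told apart anywhere below.

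Values are the authors' deposited signals, scaled alike on every array (the trimmed mean of the signals was 150.0 on all of them). Changes are given as log2 of P21 over P0, computed on log2(signal + 16), which understates the change of dim genes. Each gene is represented by 1 probe set, the brightest over the series, and 13719 of 18193 genes on the array were bright enough to test. Values per array are listed in the order C57Bl/6 female, C57Bl/6 male, CD-1 female, CD-1 male. A gene was called when limma's test, fitted over all 48 arrays with age, strain and sex, gave a Benjamini-Hochberg adjusted p under 0.05. A call was said to hold in CD-1 when a second limma fit, of the 24 CD-1 arrays alone, called the gene in the same direction.

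The second fit was made because both C57Bl/6 P21 arrays carried a sign of uneven RNA. Their beta-actin probe sets gave 3' to 5' ratios of 3.77 and 4.22, against 1.21 and 1.35 in C57Bl/6 at P0 and 1.10 to 1.21 over the CD-1 arrays of both ages. The Gapdh ratio ran the same way, at 1.72 to 2.42 against 0.780 to 0.840 in CD-1. Both C57Bl/6 P21 arrays resembled the C57Bl/6 P42 female array most (Pearson r = 0.975 over all genes in each case). They were nearly as close to each other (r = 0.974). The C57Bl/6 P42 female array also had high ratios, 4.49 for beta-actin and 2.10 for Gapdh. A likeness of age and a likeness of RNA therefore cannot be told apart here. The CD-1 P0 male array was the most distant of the 8 from its nearest neighbour (r = 0.951 with the CD-1 P0 female array). Markers of hypothalamic identity were present at both ages, with a summed signal over 19 genes of 5724 to 6439 at P0 and 19133 to 21124 at P21. Signs of neighbouring tissue varied between arrays. The thalamus markers (3 of 7 tested called higher, all 3 also in CD-1) summed to 1511 to 1809 at P0 and 2200 to 3553 at P21. The choroid plexus markers (4 tested, led by the transthyretin gene Ttr) summed to 268 to 1084 at P0 and 342 to 5546 at P21. The pituitary markers (4 tested, led by the growth hormone gene Gh) summed to 117 to 189 at P0 and 254 to 6755 at P21, with the Gh signal at 6386, 132, 35.3 and 13.6 on the P21 arrays.

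Of the 13719 genes tested, 4745 were called between birth and weaning (34.6% of all tested), 2447 higher at P21 (17.8%) and 2298 lower (16.8%). The call held in CD-1 for 3159 of them, 1689 higher (12.3%) and 1470 lower (10.7%), and none was called in opposite directions by the 2 fits. The CD-1 fit on its own called 3786 genes (27.6% of all tested), 2032 higher (14.8%) and 1754 lower (12.8%). Among genes called in both fits, the change over all arrays was at least 2-fold for 753 that rose and 563 that fell. In the remaining 1586 genes the CD-1 fit did not make the call, although 4725 of all 4745 pointed the same way in CD-1. The CD-1 arrays are part of both fits, so this agreement in direction is partly built in and is no independent check of the calls. Without both C57Bl/6 P21 arrays 3103 genes were called, and the CD-1 fit called 2339 without its P21 male array and 2500 without its P21 female array. All 4 P21 arrays lay above all 4 P0 arrays for 16.6% of genes and below them for 15.7%. These shares are the background against which the counts in every gene family below are to be read.

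**Figure D1:**
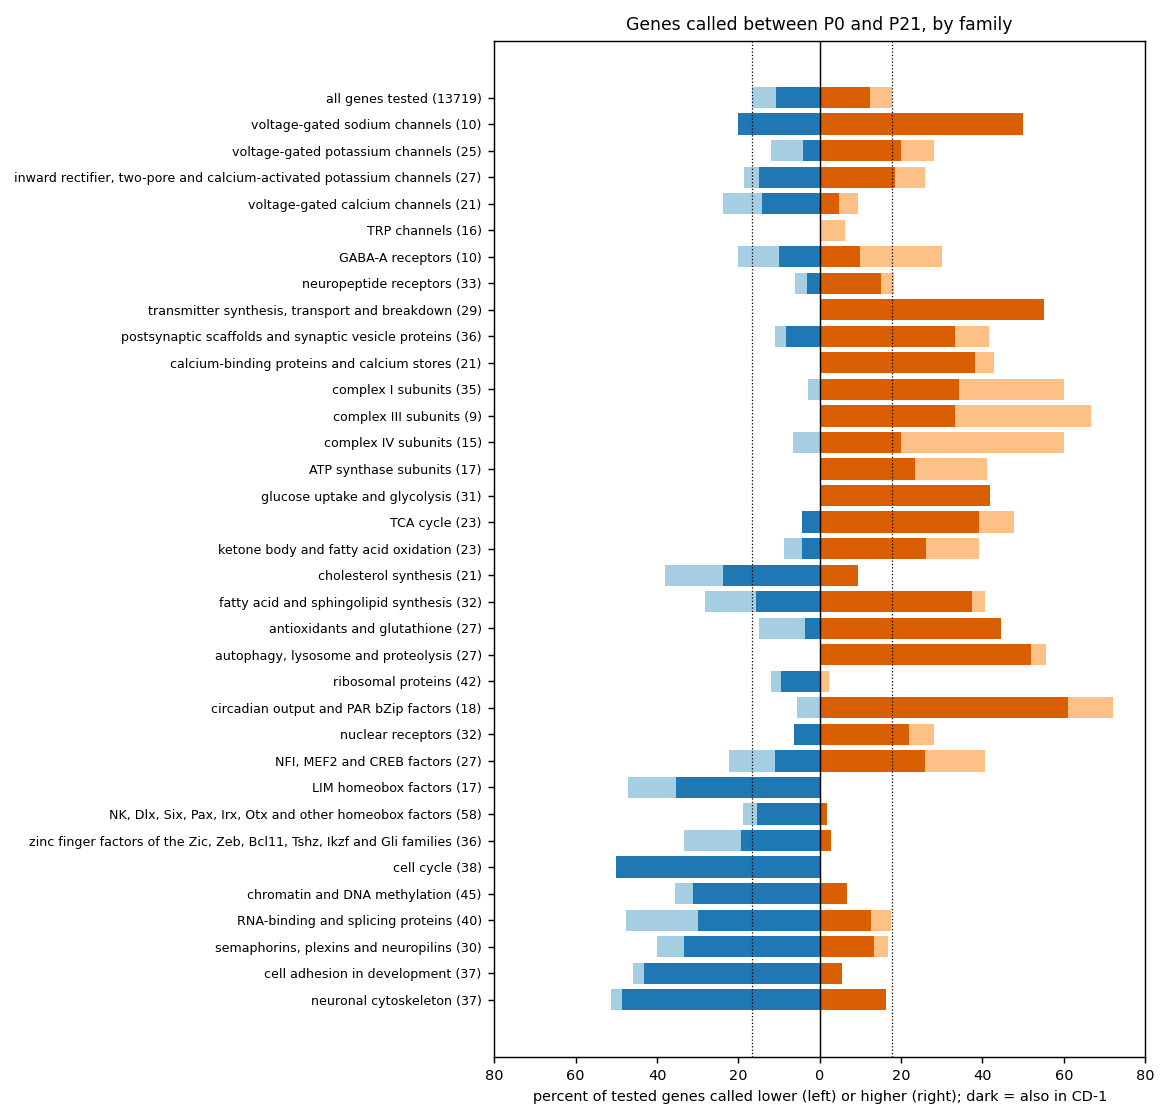
Percent of tested genes called higher (orange, right of 0) and lower (blue, left of 0) at P21 than at P0 in 34 gene families, with the number tested in brackets; dark bars are calls that held in CD-1, and the top bar and dotted lines give all 13719 genes (17.8% higher, 16.8% lower). Families of transmitter enzymes, respiratory subunits and circadian factors extend to the right, and LIM homeobox, cell cycle and cytoskeletal genes to the left.

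The voltage-gated sodium channels, which carry the upstroke of the action potential, exchanged members between birth and weaning. Of 10 tested, 5 rose and 2 fell, and all 7 calls held in CD-1, beside 17.8% and 16.8% of all genes. Scn1a, which encodes the pore subunit Nav1.1, had signals of 143, 147, 205 and 169.6 at P0 and 524, 478, 522 and 629 at P21. Every P21 array lay above every P0 array, and the change was 1.61 on the log2 scale (SE 0.31, limma adjusted p = 7.3e-05; CD-1 1.54). Scn3a, the pore subunit known as the embryonic form, went the other way with signals of 656, 641, 675 and 483 at P0 and 184, 265, 256 and 212 at P21. It fell by 1.36 (SE 0.28, limma adjusted p = 0.00021; CD-1 change -1.24), again without overlap between the ages. Within each array, the log2 difference of Scn1a minus Scn3a moved from a range of -2.08 to -1.43 at P0 to one of 0.81 to 1.5 at P21. Scn8a, which encodes Nav1.6 of axon initial segments and nodes of Ranvier, rose by 0.94 (SE 0.19), and Scn2a, the pore subunit of immature axons, had a change of 0.56 that was not called (limma adjusted p = 0.085). Scn2a was called higher under some alternatives, such as array weights (0.58, limma adjusted p = 0.00963) and a pseudocount of 64 (0.54, limma adjusted p = 0.0332). 1 other of the 4 Scn2a probe sets was called in the opposite direction, so the direction of Scn2a is uncertain.

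The small beta subunits of the same channels, which set gating and anchor the pore, also moved in opposite directions. Scn2b had signals of 180.5, 179, 199 and 258 at P0 and 379, 361, 1971 and 2252 at P21, and Scn4b signals of 13.5, 6.42, 4.06 and 15.8 at P0 and 99.6, 67.9, 97.3 and 121 at P21. The log2 change was 2.05 for Scn2b (SE 0.41; CD-1 3.13) and 2.12 for Scn4b (SE 0.36; CD-1 2.30), and P0 signals of Scn4b were low, near the 20th percentile of all values (15.0). For Scn2b both CD-1 arrays at P21 were above both C57Bl/6 arrays, and the change was larger in CD-1 by 2.15 (SE 0.39, limma adjusted p = 0.00822). Scn3b, the beta subunit most abundant in immature neurons, fell by 0.88 (SE 0.18; CD-1 change -1.0). Scn7a, which encodes the sodium-sensing Nax channel of glia in salt-sensing regions, rose by 1.63 (SE 0.30; CD-1 1.37).

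Potassium channels set resting potential and repolarise the cell. In the voltage-gated family 7 of 25 tested rose and 3 fell (28.0% and 12.0%), with 5 and 1 of these calls held in CD-1. The largest change by far was in Kcna1, encoding the low-threshold Kv1.1 channel that in myelinated axons sits beside the nodes. Its signal was 45.7, 58.6, 53.1 and 20.5 at P0 and 792, 622, 493 and 696 at P21, a change of 3.49 (SE 0.45, limma adjusted p = 1.5e-07; CD-1 3.58). The fast-spiking Kv3 genes Kcnc2 and Kcnc1 rose by 1.16 (CD-1 1.59) and 0.65 (CD-1 0.81), and Kcnh2, which encodes the ERG channel, by 0.95 (CD-1 0.92). Kcnv1, a modifier subunit with no current of its own, fell by 1.24 (SE 0.27; CD-1 change -0.90). Kcnd3, an A-type channel gene, and Kcnq3, an M-current gene, were not called (changes -0.48 and -0.03), although 1 of the 4 Kcnd3 probe sets was called lower (-0.99). Kcnd3 was called lower under some alternatives, such as quantile normalization (-0.49, limma adjusted p = 0.0409) and C57Bl/6 alone (-0.72, limma adjusted p = 0.0152). Kcnc1 lost its call with the beta-actin ratio as a covariate (0.57, adjusted p = 0.16), without both C57Bl/6 P21 arrays (0.59, adjusted p = 0.19), with a pseudocount of 1, in C57Bl/6 alone and without the CD-1 P0 female, CD-1 P0 male, C57Bl/6 P21 female, C57Bl/6 P21 male or CD-1 P21 female array. Kcnv1 lost its call without both C57Bl/6 P21 arrays (-0.83, adjusted p = 0.0514).

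Among inward rectifier, 2-pore and calcium-activated potassium channels, 7 of 27 tested rose and 5 fell (25.9% and 18.5%, against 17.8% and 16.8% of all genes). Kcnj10, the Kir4.1 channel through which astrocytes and oligodendrocytes take up potassium, had signals of 161, 143, 135 and 100 at P0 and 610.0, 739.7, 995 and 1208 at P21 and a change of 2.56 (SE 0.38, limma adjusted p = 2.1e-06; CD-1 3.07). The astrocyte marker list, of which Kcnj10 is not a member, rose with it: 13 of 14 markers tested were called higher, and their summed signal was 8463 to 10848 at P0 and 32805 to 37981 at P21. The part of astrocytes in the Kcnj10 result was not tested. Of the leak channels, Kcnk3 (TASK-1) rose by 1.87 (CD-1 2.08) and Kcnk1 by 1.31 (CD-1 1.20), whereas Kcnk10 (TREK-2) fell from signals of 295, 345, 229 and 264 to 80.3, 117, 74.7 and 98.4, a change of -1.46 (SE 0.23; CD-1 -1.36). Kcnj9, a G protein-gated Kir3 subunit, rose by 1.59 (CD-1 1.73), and its partner Kcnj3 was not called (-0.10). The calcium-activated channel genes Kcnmb2 and Kcnn1 fell by 0.88 and 0.75, both also in CD-1. Kcnj9 lost its call with a stricter filter (0.11, adjusted p = 0.84). Kcnn1 lost its call over the mean of its probe sets (-0.34, adjusted p = 0.25) and in C57Bl/6 alone.

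**Figure D2:**
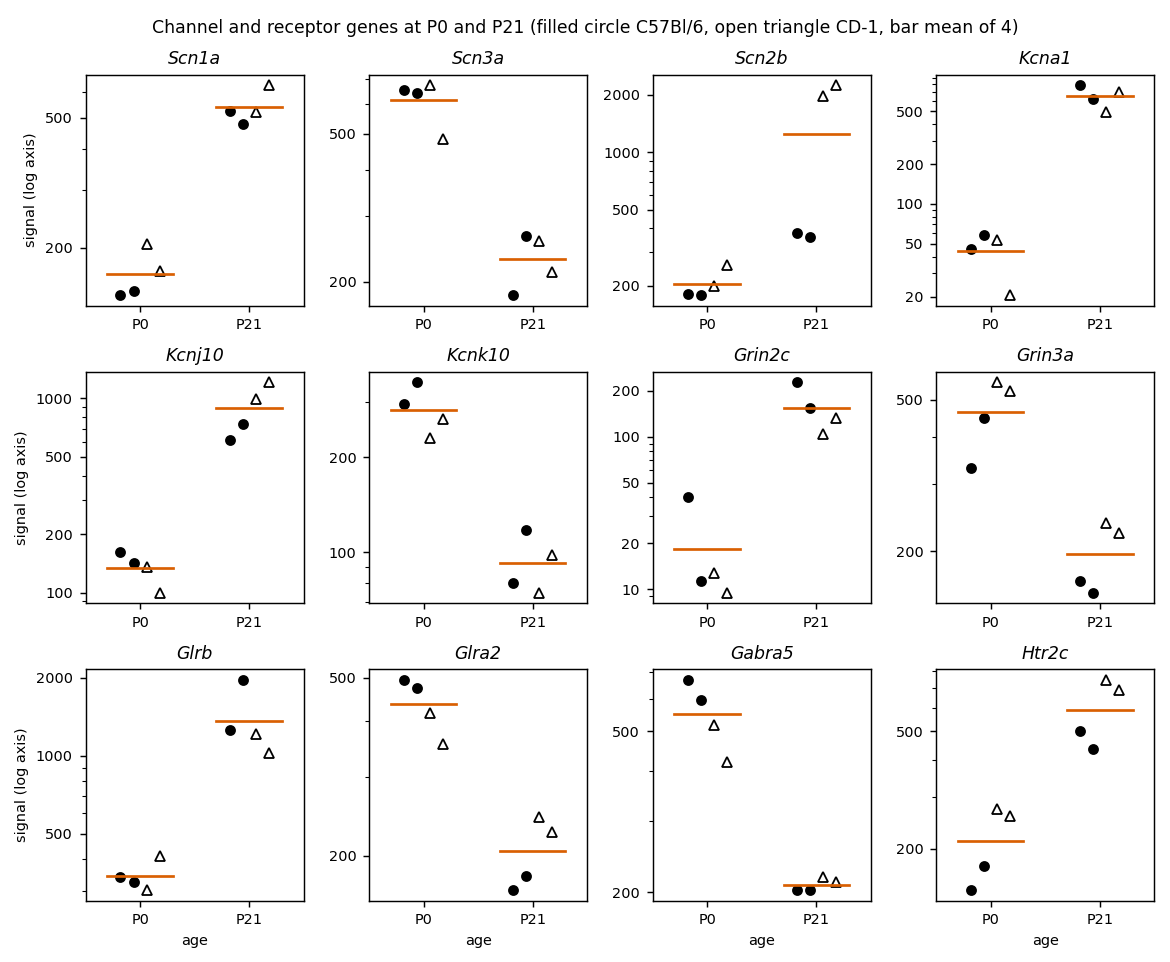
Deposited signal on a log axis for 12 channel and receptor genes on the 4 P0 and 4 P21 arrays; filled circles are C57Bl/6, open triangles CD-1, and the bar is the mean of the 4 arrays. In 7 panels (Scn1a, Scn2b, Kcna1, Kcnj10, Grin2c, Glrb and Htr2c) the P21 points lie above all P0 points, and in the other 5 (Scn3a, Kcnk10, Grin3a, Glra2 and Gabra5) below them.

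Of 21 calcium channel genes tested 2 were called higher and 5 lower (9.52% and 23.8%, against 17.8% and 16.8% of all genes), and 1 and 3 of these calls held in CD-1. Cacng4, a TARP subunit that escorts AMPA receptors, had signals of 887, 981, 1088 and 1189 at P0 and 311, 357, 517 and 466 at P21 and a change of -1.31 (SE 0.22, limma adjusted p = 1.1e-05; CD-1 -1.19). The L-type pore Cacna1c fell by 0.84 and the T-type pore Cacna1h by 0.58, both also in CD-1. Cacnb4, an auxiliary beta subunit, rose by 0.95 (CD-1 0.96). Cacna1c lost its call with the beta-actin ratio as a covariate (-0.57, adjusted p = 0.0681) and without both C57Bl/6 P21 arrays (-0.63, adjusted p = 0.0757). Cacna1h lost its call with a pseudocount of 1, with quantile normalization, with median centring, with no filter, in C57Bl/6 alone and without the C57Bl/6 P0 female, C57Bl/6 P0 male, CD-1 P0 female, CD-1 P21 female or CD-1 P21 male array. The R-type pore gene Cacna1e was not called (-0.06). The brightest probe set of the N-type pore gene Cacna1b was not called (-0.27), but 3 of its 4 probe sets were called lower, down to -0.83, as was their mean (-0.65, adjusted p = 0.0172). None of 16 TRP channels tested was called in CD-1, and only the change of 1 was called over all arrays.

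Gap junction genes moved both ways, with 3 of 7 tested higher and 2 lower. Gjb6, which encodes the astrocyte connexin 30, rose from 108 ± 29.2 to 1146 ± 338 (mean ± SD, n = 4), a change of 3.22 (SE 0.53; CD-1 3.86). Gjb1, the connexin 32 of myelinating cells, rose by 1.94 (CD-1 2.12) from P0 signals that averaged 5.27. Gjd2, encoding connexin 36, the main connexin of electrical synapses between neurons, fell instead, from 396, 425, 433 and 374 at P0 to 136, 145, 186 and 177 at P21. That change was -1.26 (SE 0.25, limma adjusted p = 8.9e-05; CD-1 -1.08). Of the pumps that restore ion gradients, Atp1b2, the glial beta subunit of the sodium-potassium ATPase, rose by 1.36 (CD-1 1.15), and the plasma membrane calcium pump genes Atp2b3 and Atp2b2 by 1.26 and 0.80. For Atp2b3 the other probe set was called in the opposite direction, so that its change is uncertain. Atp1b2 lost its call with the beta-actin ratio as a covariate (0.86, adjusted p = 0.16) and without both C57Bl/6 P21 arrays (1.02, adjusted p = 0.14).

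Among receptors for inhibitory transmitters, single subunit genes rose and others fell. All 3 glycine receptor genes tested were called and held in CD-1. Glrb, the beta subunit that anchors the receptor at synapses, had signals of 339, 324, 303 and 409.9 at P0 and 1256, 1964, 1209.8 and 1021 at P21, a change of 1.90 (SE 0.31, limma adjusted p = 9.2e-06; CD-1 1.61). Glra3 rose by 1.5 (SE 0.33; CD-1 1.4). Glra2, the alpha subunit of fetal receptors, had signals of 494, 475, 418 and 355 at P0 and 168, 181, 244 and 226 at P21 and fell by 1.04 (SE 0.30, limma adjusted p = 0.00561; CD-1 change -0.68, adjusted p = 0.0277). Glra2 lost its call with the beta-actin ratio as a covariate (-0.86, adjusted p = 0.0648) and without both C57Bl/6 P21 arrays (-0.92, adjusted p = 0.0749). Glra1, the alpha subunit of adult receptors, was not tested here.

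In the GABA-A family 3 of 10 tested rose and 2 fell, and 1 call in each direction held in CD-1. Gabra5, the subunit of many extrasynaptic receptors, fell from 670.1, 597, 519.7 and 419 at P0 to 203, 203, 218 and 212 at P21. The ages did not overlap, and the change was -1.32 (SE 0.25, limma adjusted p = 6.5e-05; CD-1 -1.06). Gabra4 rose by 0.69 (SE 0.20; CD-1 1.07). Gabrb2 was called over all arrays (0.64) but not in CD-1 (0.43, adjusted p = 0.19), and Gabra2 was not called (0.27). Gabra3 was at -0.25 in its brightest probe set, which was not called, and at -1.5 in its other one, which was called lower. Gabra4 lost its call in C57Bl/6 alone and without the CD-1 P21 male array. Gabrb2 lost its call with the beta-actin ratio as a covariate (0.39, adjusted p = 0.33), without both C57Bl/6 P21 arrays (0.51, adjusted p = 0.24), over the mean of its probe sets (0.32, adjusted p = 0.15), with a pseudocount of 1, with quantile normalization and without the C57Bl/6 P0 female, C57Bl/6 P0 male, CD-1 P0 female, C57Bl/6 P21 female, C57Bl/6 P21 male or CD-1 P21 male array.

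The direction in which GABA acts depends on chloride, which Slc12a2 (NKCC1) carries into and Slc12a5 (KCC2) out of neurons. Slc12a5 had signals of 3065, 3055, 3692 and 4087 at P0 and 4456, 4017, 4313 and 4672 at P21, a change of 0.34 (SE 0.26) that was not called (limma adjusted p = 0.33). It was called higher under some alternatives and not under others. Examples are a fit of only the 8 arrays of P0 and P21 (0.34, limma adjusted p = 0.0325) and array weights (0.49, limma adjusted p = 0.0336). The other Slc12a5 probe set was at -0.81 and not called, so the direction of Slc12a5 is uncertain. Slc12a2 rose by 0.85 (SE 0.14, limma adjusted p = 5.2e-06; CD-1 0.85). The log2 difference of Slc12a5 minus Slc12a2 was 2.42 to 2.98 at P0 and 1.88 to 2.31 at P21, so it was lower on every P21 array. Slc12a2 is also made by oligodendrocyte lineage cells, astrocytes and choroid plexus, and the part of these cells in its rise was not tested. The kinase Stk39, which activates Slc12a2, rose by 0.73 (CD-1 0.99), and Wnk3, a kinase above it, fell by 0.62 (CD-1 change -0.41). Wnk3 lost its call with the beta-actin ratio as a covariate (-0.51, adjusted p = 0.058) and without both C57Bl/6 P21 arrays (-0.55, adjusted p = 0.0688). Carbonic anhydrase 2 (Car2), abundant in oligodendrocytes, rose from 287 ± 78.5 to 1487 ± 394 (mean ± SD, n = 4; 2.32, CD-1 2.27).

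Ionotropic glutamate receptors changed in few members. Among NMDA receptor genes 1 of 5 tested rose and 1 fell. Grin2c, whose product is found in astrocytes and some mature neurons, had signals of 40.2, 11.3, 12.7 and 9.52 at P0 and 226, 154, 104 and 132 at P21. Those P0 signals were near the bottom of the range, and the change was 2.34 (SE 0.33, limma adjusted p = 6.7e-07; CD-1 2.30). Grin3a, a subunit typical of juvenile synapses, had signals of 331, 448, 556 and 529 at P0 and 168, 156, 238 and 224 at P21 and fell by 1.18 (SE 0.28; CD-1 change -1.18). Grin2b and Grin2d, the fetal NR2 subunits, were not called (-0.28 and 0.03), although 1 of the 4 Grin2b probe sets was called lower (-1.05). Grin3a lost its call without both C57Bl/6 P21 arrays (-0.89, adjusted p = 0.0576). Of the AMPA receptor genes Gria1 was called over all arrays (0.91) and not in CD-1 (0.44), and Gria2 and Gria3 were not called (0.12 and 0.26). The brightest probe set of Gria4 was not called (-0.06), but 2 of its 3 probe sets were called lower, down to -0.74. Gria1 lost its call with the beta-actin ratio as a covariate (0.41, adjusted p = 0.44), without both C57Bl/6 P21 arrays (0.47, adjusted p = 0.44), with a pseudocount of 1 and without the C57Bl/6 P0 female, C57Bl/6 P0 male, C57Bl/6 P21 female or C57Bl/6 P21 male array. Metabotropic and kainate receptors gave no call that held in CD-1.

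Receptors for modulators followed no single direction. The histamine receptor genes Hrh3, an inhibitory autoreceptor of histamine neurons, and Hrh1 rose. Hrh3 had signals of 77.1, 83.0, 85.2 and 111 at P0 and 288, 374, 337 and 371 at P21 (change 1.77, SE 0.27; CD-1 1.71), and Hrh1 changed by 1.03 (CD-1 0.82). Htr2c, a serotonin receptor of neurons that restrain feeding, was the only 1 of 8 serotonin receptor genes tested to be called, with signals of 145, 175, 273 and 258 at P0 and 499, 434, 744 and 688 at P21 and a change of 1.42 (SE 0.36, limma adjusted p = 0.00204; CD-1 1.38). Chrna3, a nicotinic receptor subunit, fell by 1.34 (SE 0.22; CD-1 change -1.46), and no acetylcholine receptor gene of 7 tested rose. Of 33 neuropeptide receptor genes tested 6 rose and 2 fell (18.2% and 6.06%), and the share that rose was near the 17.8% of all genes. Tacr3, the neurokinin B receptor of neurons that drive gonadotropin release, rose by 1.03 (CD-1 1.01), Npy2r by 0.91 (CD-1 1.06) and the orexin receptor gene Hcrtr1 by 1.13 (CD-1 1.18). Prokr2, the prokineticin receptor, fell by 0.58 (CD-1 change -0.89). The growth hormone receptor gene Ghr and the cytokine receptor genes Lifr and Il6st rose by 0.68, 0.85 and 0.92, all 3 also in CD-1. Hrh1 lost its call with the beta-actin ratio as a covariate (0.77, adjusted p = 0.0594). Npy2r lost its call with a pseudocount of 1 and in C57Bl/6 alone. Prokr2 lost its call with quantile normalization, with median centring, in C57Bl/6 alone and without the CD-1 P0 female, CD-1 P21 female or CD-1 P21 male array. Ghr lost its call over the mean of its probe sets (0.49, adjusted p = 0.0543), in C57Bl/6 alone and without the C57Bl/6 P0 female, C57Bl/6 P0 male, CD-1 P0 female, CD-1 P0 male, C57Bl/6 P21 female, CD-1 P21 female or CD-1 P21 male array. Lifr lost its call in C57Bl/6 alone and without the CD-1 P0 male array. Il6st lost its call over the mean of its probe sets (0.30, adjusted p = 0.2).

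Genes that make, move and break down transmitters rose together. Of 29 tested 16 were called higher and none lower (17.8% and 16.8% of all genes), and all 16 held in CD-1. Their median change was 0.66, against -0.03 over all genes. Histidine decarboxylase (Hdc), the enzyme that makes histamine, had signals of 9.28, 8.34, 8.61 and 8.93 at P0 and 47.2, 41.9, 173 and 80.4 at P21, with all P21 arrays above all P0 arrays and a change of 1.87 (SE 0.35; CD-1 2.45). Tyrosine hydroxylase (Th), the first enzyme of dopamine synthesis, had signals of 68.3, 87.3, 78.8 and 108 at P0 and 359, 257, 432 and 362 at P21 and a change of 1.85 (SE 0.23, limma adjusted p = 1.1e-07; CD-1 1.92). The glial members rose with them: Slc1a2, the main glutamate transporter of astrocytes, by 2.98, Maob, which oxidises amines, by 2.27, and Glul, which makes glutamine, by 1.68. Among the brightest members without a call were Gad1, Slc38a1, Slc17a6 and Slc38a2, at 0.22, 0.27, -0.15 and -0.20, and the other Slc38a1 probe set was called higher (0.55). Slc17a6 was called lower in C57Bl/6 alone (-0.66, limma adjusted p = 0.0191). Slc38a2 was called lower over the mean of its probe sets (-0.31, limma adjusted p = 0.042).

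Vesicle and postsynaptic genes rose in 15 of 36 tested and fell in 4. Vamp1, the vesicle SNARE of fast-firing neurons, had signals of 89.5, 102, 132 and 88.7 at P0 and 830.3, 581, 943 and 966 at P21, a change of 2.82 (SE 0.46; CD-1 2.97), against 1.05 for its relative Vamp2 (CD-1 1.04). Within arrays the log2 difference of Vamp1 minus Vamp2 went from -3.16 to -2.82 at P0 to -1.72 to -1.06 at P21. Complexin 1 (Cplx1) rose by 1.39 and Snap25 by 1.25, both also in CD-1. Syn3, the synapsin of developing neurons, fell from 748, 649, 583 and 605 at P0 to 201, 221, 135 and 140.4 at P21 (-1.82, SE 0.21; CD-1 -1.99), and the SNARE gene Stx1a fell by 0.73 (CD-1 change -0.85). Pvalb, the calcium buffer parvalbumin, rose by 2.84 (SE 0.48; CD-1 2.33), and 9 of 21 calcium-binding and store genes tested rose while none fell. Downstream, the adenylyl cyclase gene Adcy1 fell from 981 ± 252 to 343 ± 55.9 (mean ± SD, n = 4; -1.45, CD-1 -1.69) and Adcy5 rose by 0.79 (CD-1 0.64) in 1 of its 3 probe sets, which ranged from -0.56 to 0.79. The kinase genes Camk4 and Camk2d fell by 0.97 and 0.90, also in CD-1, and Prkcq rose by 1.4 (CD-1 1.48). Vamp2 lost its call over the mean of its probe sets (0.43, adjusted p = 0.17). Adcy5 lost its call over the mean of its probe sets (0.16, adjusted p = 0.52).

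Energy metabolism moved upward in most of its pathways. Of 35 subunits of respiratory complex I, the entry point of NADH electrons into the chain, 21 rose and 1 fell, and 12 of the rises held in CD-1 (12.3% of all genes rose in both fits). Complex III had 6 of 9 higher, complex IV 9 of 15 and the ATP synthase 7 of 17, of which 3, 3 and 4 held in CD-1, and complex IV had 1 called lower. The changes of these abundant genes were small, with medians of 0.47, 0.55, 0.38 and 0.21 over all arrays and 0.42, 0.54, 0.22 and 0.24 in CD-1. The complex I subunit gene Ndufa13 had signals of 1847, 1745, 1412 and 1542 at P0 and 5724, 5245, 2858 and 3611 at P21 (1.36, SE 0.19; CD-1 1.11), without overlap between the ages. Uqcrh of complex III rose by 1.06 (CD-1 1.07) and the ATP synthase subunit gene Atp5k by 1.08 (CD-1 1.14). With the beta-actin ratio as a covariate, 13, 2, 1 and 4 subunits of these complexes remained called higher.

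Glycolysis, which turns glucose into pyruvate, rose in 13 of 31 genes tested, fell in none, and all 13 held in CD-1 (median change 0.32 over all arrays and 0.55 in CD-1). The glucose transporter gene Slc2a1 (GLUT1), the transporter of the blood-brain barrier and glia, had signals of 548, 540.2, 292 and 162 at P0 and 1963, 1527, 788 and 898 at P21, a change of 1.76 (SE 0.22, limma adjusted p = 6.5e-08; CD-1 1.87). Enolase 2 (Eno2), the neuronal enolase, had signals of 665, 699, 862 and 764 at P0 and 1986, 1983, 3138 and 3011 at P21 (1.71, SE 0.30; CD-1 1.90). Aldoc, the astrocytic aldolase, rose by 2.15 (CD-1 2.18) and its sister Aldoa by 0.97 (CD-1 1.0). Pdk2, which restrains the entry of pyruvate into the mitochondrial cycle, rose by 1.75 (CD-1 1.69). Ldhb rose by 0.95 while Ldha, the other lactate dehydrogenase subunit, was not called (0.04). Slc2a3, the neuronal glucose transporter, was not called either (0.23), and 1 of its 4 probe sets was called lower.

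**Figure D3:**
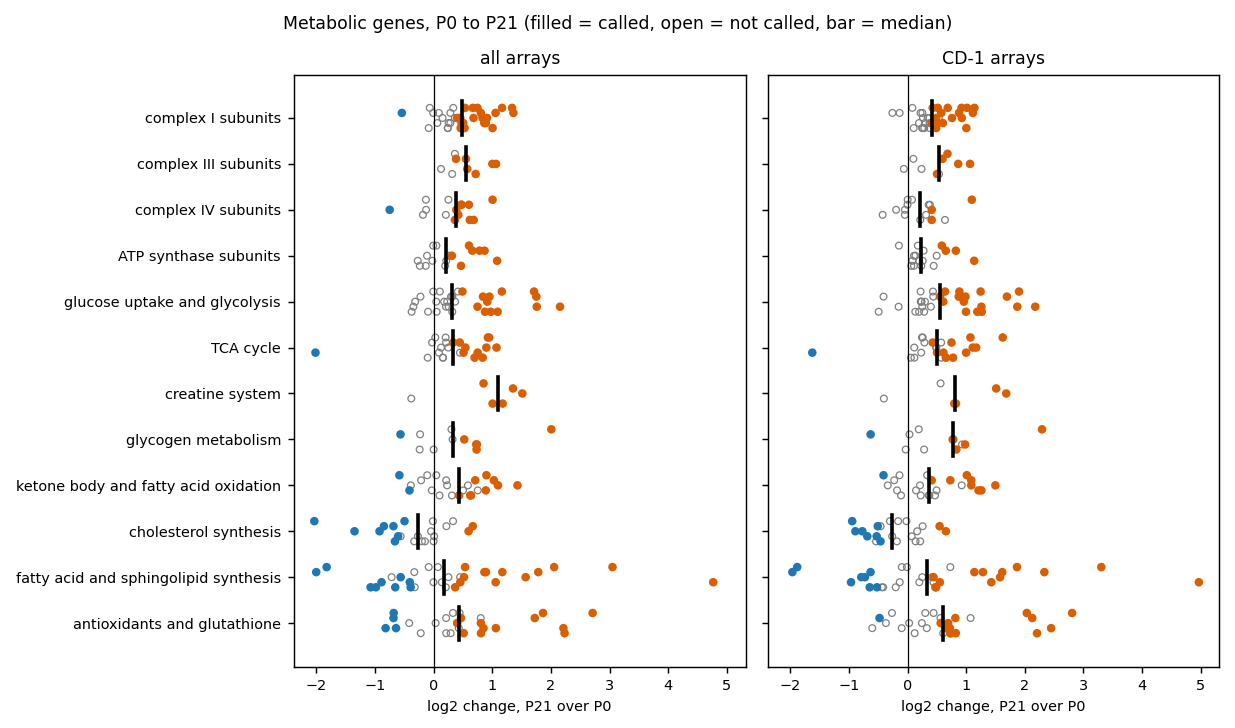
Log2 change from P0 to P21 of every tested gene in 12 metabolic families (all-array fit on the left, CD-1 fit on the right); filled points were called in that fit, open points were not, and the black bar is the family's median. The respiratory complexes and glycolysis lie mostly above 0 in both fits, cholesterol synthesis mostly below 0, and Idh1 is the lowest point of the TCA cycle.

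In the TCA cycle 11 of 23 genes rose and 1 fell. The rises included Suclg1 (1.07, CD-1 1.17), Idh3b (0.94, CD-1 1.07) and Sdha (0.90, CD-1 1.11). The exception was Idh1, the isocitrate dehydrogenase of the cytosol, which makes NADPH for lipid synthesis outside the cycle. Its signals were 2554, 2738, 2889 and 2333 at P0 and 420.3, 558, 864 and 800.2 at P21, so that the ages did not overlap, and it fell by 2.02 (SE 0.28, limma adjusted p = 7e-07; CD-1 change -1.62). Both Idh1 probe sets were called lower, with changes of -2.02 and -1.71. The creatine system, a buffer of high-energy phosphate, rose in 5 of 6 genes, among them the mitochondrial kinase Ckmt1 (1.51, CD-1 1.68) and the creatine-making enzyme Gamt (1.35, CD-1 1.51). Pygm, the muscle-type glycogen phosphorylase that astrocytes also make, had signals of 24.2, 35.1, 21.5 and 20.3 at P0 and 129, 137, 161 and 169 at P21 (2.0, SE 0.40; CD-1 2.29). Fatty acid oxidation and ketone use rose in 9 of 23 and fell in 2. Hadh and Acadvl, enzymes of beta-oxidation, rose by 1.10 and 1.03, both also in CD-1. Of the ketone body enzymes, Acat1 fell by 0.59 (CD-1 change -0.41) and Oxct1 was not called (0.10). Bdh1 was at -0.22 in its brightest probe set, which was not called, and at -1.30 in its other one, which was called lower, as was their mean (-0.76, adjusted p = 0.00064). Acat1 lost its call with the beta-actin ratio as a covariate (-0.49, adjusted p = 0.0873), without both C57Bl/6 P21 arrays (-0.60, adjusted p = 0.056) and with median centring.

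Lipid pathways divided. Cholesterol synthesis fell in 8 of 21 genes and rose in 2, of which 5 and 2 held in CD-1. Farnesyl diphosphate synthase (Fdps) had signals of 1507, 1685, 1447 and 2151 at P0 and 151, 187, 848 and 975 at P21 (-2.04, SE 0.33; CD-1 -0.94), and squalene epoxidase (Sqle) fell by 1.35 (CD-1 change -0.89). The Fdps change was -3.13 in C57Bl/6 and -0.94 in CD-1, and this difference of 2.19 did not pass the test (SE 0.59, limma adjusted p = 0.062). Hmgcs1, a synthase early in the pathway, was at -0.33 in its brightest probe set, which was not called over all arrays, but 3 of its 4 probe sets were called lower, down to -1.0, as was their mean (-0.71, adjusted p = 0.00017). Sphingolipid and fatty acid enzymes rose in 13 of 32 and fell in 9. Fa2h, which hydroxylates the fatty acids of myelin lipids, had signals of 84.0, 55.6, 62.2 and 104 at P0 and 449.8, 719.9, 1014 and 874 at P21 (3.05, SE 0.39; CD-1 3.30). Elovl7 and the desaturase gene Scd1 rose by 1.78 and 2.05, both also in CD-1, whereas Elovl2, an elongase of polyunsaturated fatty acids, fell by 1.83 and the neutral sphingomyelinase gene Smpd3 by 2.0, both also in CD-1. The myelin markers rose with Fa2h, 8 of 9 tested, and their summed signal went from 926 to 1254 at P0 to 12559 to 13606 at P21. The part of oligodendrocytes in these changes was not tested. The remaining myelin marker, Mbp, had a change of 0.06 in its brightest probe set, while its other probe sets rose by up to 7.70.

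Of the lipid carriers, the apolipoprotein genes Clu, Apod and Apoe rose by 2.18, 1.68 and 1.34 (CD-1 1.77, 2.39 and 1.64). Apoe lost its call with the beta-actin ratio as a covariate (1.28, adjusted p = 0.0791), without both C57Bl/6 P21 arrays (1.48, adjusted p = 0.0613), in C57Bl/6 alone and without the CD-1 P0 male array. Fabp7, the fatty acid carrier of radial glia, fell from 6484, 5692, 5622 and 5257 at P0 to 1496, 2199, 1616 and 1436 at P21 (-1.78, SE 0.28; CD-1 -1.82), and lipoprotein lipase (Lpl) fell by 1.11 (CD-1 change -1.24). Antioxidant genes rose in 12 of 27 and fell in 4. The metal-binding metallothionein genes Mt1, Mt2 and Mt3 rose together, by 2.71, 2.23 and 2.21 (CD-1 2.81, 2.21 and 2.45), with Mt1 signals of 876, 684, 655 and 469 at P0 and 5434, 4263, 4128 and 3820.5 at P21. The peroxiredoxin gene Prdx2 fell by 0.69 (CD-1 change -0.48). Lysosomal and autophagy genes rose in 15 of 27 and fell in none, with 14 held in CD-1. Acid alpha-glucosidase (Gaa) rose by 1.78, cathepsin S (Ctss), which is abundant in microglia, by 1.63, cystatin C (Cst3) by 1.47 and the autophagy gene Gabarapl1 by 1.34, each also in CD-1. The microglial markers, 5 of 8 called higher, had a summed signal of 1556 to 1842 at P0 and 3851 to 4514 at P21. Whether microglia took part in the lysosomal rise was not tested. Ribosomal protein genes changed little, 1 higher and 5 lower of 42 tested, with a median of -0.10. In the CD-1 fit 12 were lower and none higher (median -0.33).

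Among transcription factors, those of the circadian clock and its output were called higher in 13 of 18 tested and lower in 1 (72.2% and 5.56%), with 11 rises held in CD-1 and a median of 1.23. Dbp, a PAR bZip factor driven directly by the clock, had signals of 81.5, 64.7, 73.4 and 71.6 at P0 and 1077, 1192, 783 and 703 at P21 (3.40, SE 0.34, limma adjusted p = 3.1e-09; CD-1 3.10). Bhlhe40 rose by 2.64, the REV-ERB gene Nr1d2 by 1.92 and Tef by 1.81 (CD-1 2.48, 2.06 and 1.71). Per1 had signals of 180.3, 193, 192 and 203 at P0 and 628, 515, 359 and 441 at P21 (1.24; CD-1 0.96). The core clock genes Arntl, Clock and Cry1 were not called (-0.03, 0.47 and -0.10), although 1 of the 4 Clock probe sets was called higher. Clock was near the threshold. It was called higher under some alternatives, such as quantile normalization (0.51, limma adjusted p = 0.0471) and C57Bl/6 alone (0.69, limma adjusted p = 0.0388), and not under others. The hour of dissection was not given in the labels, so a different hour at P0 and P21 cannot be told apart from age. The activators of clock output bind the E-box CACGTG, and RefSeq promoter windows (build GRCm38.p6, 250 bases before to 50 after each start) were searched for these letters, which read the same on both strands. They were found in 3 of the 11 called-higher circadian genes that have a window, Tef, Per1 and Ciart, which is 27.3%, against 11.3% of the 11035 tested genes with a window. Over all 16 tested circadian genes with a window the share was much the same, 4 genes or 25.0%, with Cry1, which was not called, as the other one. The E-box thus did not set the rising genes apart within this list. Ciart, a repressor within the clock that rose by 1.65 (CD-1 1.90), was singled out after its values were seen because its window held 3 E-boxes. It is shown with the Per1 window that held 1 (the other Per1 start held none), from 250 bases before the start up to it, 5′ to 3′, with each E-box in capitals.
Ciart, chr3:95882229-95882478, minus strand: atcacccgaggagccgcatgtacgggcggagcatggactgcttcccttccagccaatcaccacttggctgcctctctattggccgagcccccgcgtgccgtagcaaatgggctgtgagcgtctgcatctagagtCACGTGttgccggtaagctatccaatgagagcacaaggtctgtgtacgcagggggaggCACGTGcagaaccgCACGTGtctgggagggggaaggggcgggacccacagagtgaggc
Per1, chr11:69098699-69098948, plus strand: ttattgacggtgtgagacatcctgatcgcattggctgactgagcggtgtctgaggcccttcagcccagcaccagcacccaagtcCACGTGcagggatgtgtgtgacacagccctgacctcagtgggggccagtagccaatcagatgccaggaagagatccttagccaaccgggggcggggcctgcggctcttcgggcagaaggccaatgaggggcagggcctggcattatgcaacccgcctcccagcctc

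Among 32 nuclear receptor genes, the receptors of steroid and thyroid hormones and their relatives, 9 rose and 2 fell (28.1% and 6.25%), with 7 and 2 held in CD-1 and a median of 0.03. The progesterone receptor gene (Pgr) had signals of 136, 129, 104 and 92.6 at P0 and 379, 449, 386 and 395 at P21 (1.68, SE 0.25; CD-1 1.83), and the glucocorticoid receptor gene Nr3c1 had signals of 146, 148, 123 and 126 at P0 and 320.3, 406, 376 and 349 at P21 (1.32, SE 0.30, limma adjusted p = 0.00068; CD-1 1.43). Every P21 array was above every P0 array for both. Of 16 Kruppel-like factor genes 4 rose and 4 fell. Klf9, a member induced by thyroid hormone and glucocorticoids, had signals of 216, 184, 176 and 203 at P0 and 854, 838, 1321 and 1294 at P21, a change of 2.34 (SE 0.35; CD-1 2.69). Thra, the main thyroid hormone receptor gene of the brain, was at -0.00045 and Thrb at -0.33, neither called, and 1 other of the 3 Thra probe sets was called higher. Of 11 genes of steroid enzymes tested, 3 rose and 1 fell. Hsd11b1, whose enzyme regenerates active glucocorticoid inside cells, rose by 1.92 (CD-1 2.06). The brain cholesterol hydroxylase gene Cyp46a1 had signals of 329, 269, 220.0 and 303 at P0 and 1368, 1446, 774 and 889 at P21 (1.90, SE 0.32; CD-1 1.62). Of the NFI, MEF2, CREB and C/EBP genes 11 of 27 rose and 6 fell: Nfic rose by 2.42 and Cebpb by 1.4, and Nfib, of the same family as Nfic, fell by 1.19, all 3 also in CD-1. Irf1, an interferon-responsive factor, and Stat5b, which carries growth hormone and prolactin signals, rose by 1.30 and 1.06, both also in CD-1. Stat5b lost its call over the mean of its probe sets (0.09, adjusted p = 0.8).

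In the Sox family 2 of 18 tested rose and 5 fell. The SoxC genes Sox4 and Sox12, which promote neuronal differentiation, had changes of -2.53 and -1.91 (CD-1 -2.26 and -1.94), with Sox12 signals of 669, 594, 716 and 731 at P0 and 144, 177, 172 and 183 at P21. In the LIM homeobox and LIM-only family none of 17 rose and 8 fell (6 in CD-1), with a median of -0.60. Lhx6, a factor of GABA neurons, had signals of 336, 386, 508 and 540.5 at P0 and 143, 116, 125 and 196 at P21 (-1.51, SE 0.40, limma adjusted p = 0.00303; CD-1 -1.64). Lmo3 fell by 1.73 and Isl1, needed for arcuate nucleus neurons, by 1.07, both also in CD-1. Of 58 other homeobox genes 11 fell and 1 rose. The share that fell, 19.0%, was near the 16.8% of all genes, as were those of the forkhead factors (5 of 29, 17.2%) and the POU factors (1 of 9, 11.1%). The 1 that rose was Nkx6-2, made by oligodendrocytes, from 6.72 ± 3.49 to 91.1 ± 51.9 (mean ± SD, n = 4; 2.13, CD-1 1.82). Nkx2-1, which specifies the ventral hypothalamus, fell by 0.82, also in CD-1, while Otp was not called (-0.43). Otp was called lower under some alternatives, such as array weights (-0.59, limma adjusted p = 0.0183) and C57Bl/6 alone (-0.62, limma adjusted p = 0.0343). Fezf1, a zinc finger factor on the list of hypothalamic identity markers, fell by 1.07 (CD-1 change -0.85). Nkx2-1 lost its call with the beta-actin ratio as a covariate (-0.55, adjusted p = 0.17) and without both C57Bl/6 P21 arrays (-0.60, adjusted p = 0.19).

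Zinc finger genes of the Zic, Bcl11, Tshz and related families fell in 12 of 36 and rose in 1. Bcl11b had signals of 557, 658, 807 and 1134 at P0 and 156, 123, 128 and 156 at P21 (-2.32, SE 0.40, limma adjusted p = 1.7e-05; CD-1 -2.63), and its relative Bcl11a fell by 1.48 (CD-1 change -1.64). The exception was Egr1, an early response gene of active neurons, with a change of 1.38 (CD-1 2.03). Egr1 lost its call with the beta-actin ratio as a covariate (1.10, adjusted p = 0.0797) and in C57Bl/6 alone. Nr2f1 (COUP-TFI) had signals of 725, 809, 850.4 and 553 at P0 and 174, 217, 316 and 259.5 at P21 (-1.55, SE 0.26; CD-1 -1.21), and Foxp1 fell by 0.95 (CD-1 change -1.25). Neurod6 and Neurod2 fell by 2.17 and 1.72, also in CD-1. These 2 and Tbr1 mark cerebral cortex, and the cortical marker list as a whole (4 of 6 called lower) had a summed signal of 510 to 810 at P0 and 166 to 253 at P21, and the part of adjoining cortex in these falls was not tested. The Kruppel-like genes Klf7 and Klf11 fell by 1.41 and 1.53, also in CD-1, opposite to Klf9.

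**Figure D4:**
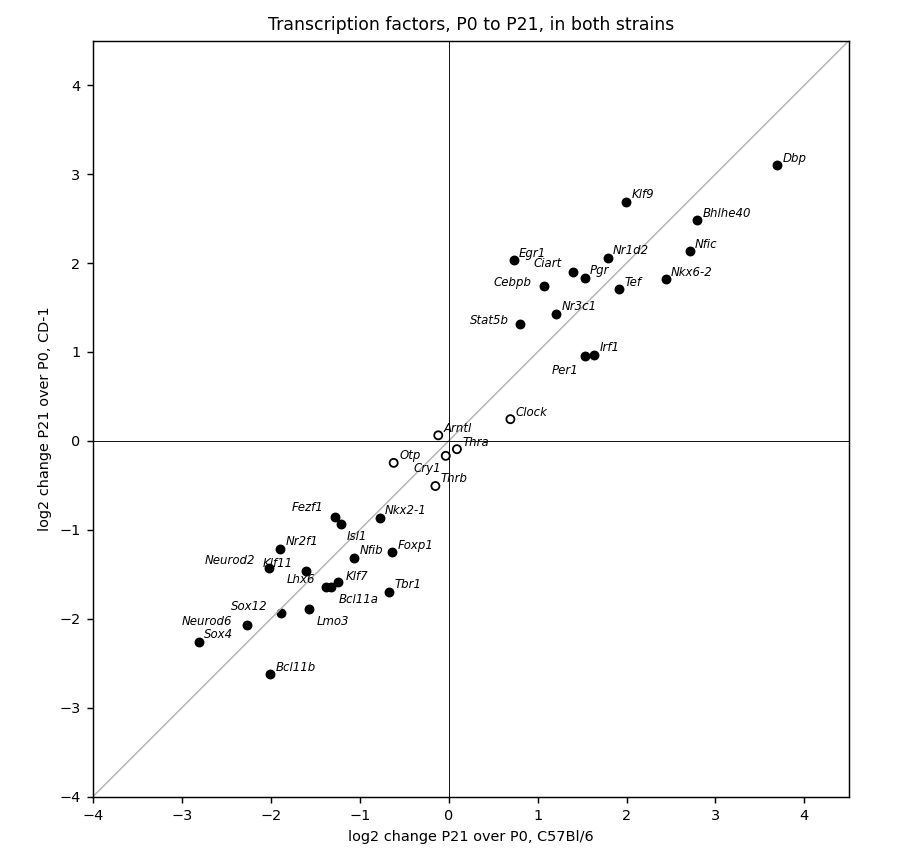
Log2 change from P0 to P21 in CD-1 (vertical) against C57Bl/6 (horizontal) for transcription factor genes named in the report, with the diagonal of equal change; filled points were called in the all-array fit and in CD-1, open points were not. Circadian factors, Klf9, Nfic, Nr3c1 and Pgr lie in the upper right, and SoxC, LIM homeobox, Bcl11 and cortical NeuroD genes in the lower left.

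Genes of the cell cycle were lower at P21 in 19 of 38 tested and higher in none, and all 19 held in CD-1 (16.8% of all genes were lower, and 10.7% in both fits). The markers of newborn neurons and progenitors, which share some genes with the families of falling genes, moved with them: 13 of 13 tested were called lower, 11 of them also in CD-1, and their summed signal was 28579 to 33278 at P0 and 9186 to 11169 at P21. The part of these cells in the falls of cell cycle, SoxC, guidance, adhesion and cytoskeletal genes was not tested. Cdk1, the kinase that drives mitosis, had signals of 122, 112, 115 and 142 at P0 and 6.85, 24.1, 6.44 and 8.74 at P21 (-2.37, SE 0.40, limma adjusted p = 1.2e-05; CD-1 -2.61). Mcm5 and Mcm6, subunits of the helicase that opens DNA for replication, had P0 means of 98.9 and 198 and P21 means of 23.3 and 51.2 (changes -1.60 and -1.70, CD-1 -1.79 and -1.52). Cdkn1c, an inhibitor of the cycle that new neurons make as they leave it, fell by 2.05 (CD-1 change -1.79), and the inhibitor gene Cdkn1b was not called (0.15). The E2F factors, which switch on replication genes, bind TTTNGCGC. These letters were searched on both strands, with overlapping matches counted. They occurred in 6 of the 15 called-lower cell cycle genes with a window (40.0%: Cdk1, Mcm3, Mcm5, Mcm6, Mcm7 and Rfc3). The share was 2.63% of all tested genes with a window. Among all 30 tested cell cycle genes with a window, the same 6 were the only ones with a match. The 2.63% covers genes of every kind, so comparison with it does not separate being a cell cycle gene from falling. In Mcm3 and Mcm7 the 250 bases before the start held no match, so theirs reached past it. The windows of Mcm5, Mcm6 and Cdk1 are shown because these 3 fell most among genes with a match. Only 1 of the 5 Mcm3 probe sets was called. Mcm3 lost its call with the beta-actin ratio as a covariate (-0.72, adjusted p = 0.0534), over the mean of its probe sets (-0.32, adjusted p = 0.27), with a pseudocount of 64, with quantile normalization, with median centring, in C57Bl/6 alone and without the C57Bl/6 P0 male, CD-1 P0 male, C57Bl/6 P21 female, CD-1 P21 female or CD-1 P21 male array. Matches are in capitals, and in Mcm5 and Mcm6 a pair of matches on opposite strands overlap. A match is a description of the sequence and not a measured site.
Mcm5, chr8:75109259-75109508, plus strand: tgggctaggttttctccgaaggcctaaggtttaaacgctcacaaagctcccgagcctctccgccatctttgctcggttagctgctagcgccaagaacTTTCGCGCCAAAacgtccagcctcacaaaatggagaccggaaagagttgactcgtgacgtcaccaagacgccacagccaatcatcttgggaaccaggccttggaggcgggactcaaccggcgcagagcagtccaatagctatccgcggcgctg
Mcm6, chr1:128359706-128359955, minus strand: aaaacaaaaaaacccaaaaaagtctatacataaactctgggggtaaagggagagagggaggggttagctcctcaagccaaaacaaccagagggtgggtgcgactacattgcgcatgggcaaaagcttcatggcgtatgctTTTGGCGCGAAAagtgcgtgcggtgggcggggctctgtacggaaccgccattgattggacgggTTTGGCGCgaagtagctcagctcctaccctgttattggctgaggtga
Cdk1, chr10:69352913-69353162, minus strand: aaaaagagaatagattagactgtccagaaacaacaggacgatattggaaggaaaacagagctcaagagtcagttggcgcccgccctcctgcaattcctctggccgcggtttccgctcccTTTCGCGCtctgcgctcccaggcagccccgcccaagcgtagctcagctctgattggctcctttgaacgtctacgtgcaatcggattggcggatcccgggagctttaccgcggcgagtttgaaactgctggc

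Chromatin regulators fell in 16 of 45 and rose in 3, and 14 and 3 of these calls held in CD-1. The deacetylase genes Hdac5 and Hdac11 rose by 1.19 and 0.94 (CD-1 1.20 and 1.08), and Hdac2 fell by 0.95 (CD-1 change -0.70). The log2 difference of Hdac11 minus Hdac2 was -2.23 to -1.32 at P0 and -0.13 to 0.35 at P21. Ezh1, the Polycomb enzyme of resting cells, rose by 0.51 (CD-1 0.55). Ezh1 lost its call with the beta-actin ratio as a covariate (0.37, adjusted p = 0.18), without both C57Bl/6 P21 arrays (0.53, adjusted p = 0.0752), over the mean of its probe sets (0.15, adjusted p = 0.49), in C57Bl/6 alone and without the CD-1 P21 male array. RNA-binding and splicing genes fell in 19 of 40 and rose in 7. Mbnl2, a splicing factor that promotes adult exon patterns in the brain, had signals of 329, 297, 252 and 140.3 at P0 and 1421, 1583, 1138 and 1193 at P21 (2.37, SE 0.31; CD-1 2.53). Mbnl1 rose by 0.86, and Cpeb1 and Cpeb3, which control translation at synapses, by 1.27 and 1.43, all 3 also in CD-1. Rbfox3, which encodes the neuronal antigen NeuN, and Celf4 and Elavl2 were bright at both ages and not called (0.06, 0.03 and 0.02).

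Axon guidance genes fell more often than they rose: 12 of 30 semaphorins, plexins and neuropilins fell and 5 rose, 8 of 20 ephrins and Eph receptors fell and 1 rose, and 5 of 14 netrin and Slit pathway genes fell and 3 rose. Nrp2, a semaphorin receptor, had signals of 885, 915, 919 and 762 at P0 and 165, 155, 254 and 269.5 at P21 (-2.0, SE 0.34, limma adjusted p = 1.4e-05; CD-1 -1.62). Epha7 and Epha3 fell by 1.71 and 1.54, the netrin gene Ntn1 by 1.18, its receptor gene Dcc by 1.26 and the repellent gene Draxin by 1.73, each also in CD-1. Dcc lost its call without both C57Bl/6 P21 arrays (-1.03, adjusted p = 0.0521). Against this trend Plxnb3, a plexin of oligodendrocytes, rose by 1.80 (CD-1 1.74) and the netrin receptor gene Unc5b by 1.10 (CD-1 1.34).

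Of 34 extracellular matrix genes 6 were higher and 8 lower (17.6% and 23.5%), shares near those of all genes. Tenascin C (Tnc), the tenascin of the growing brain, had signals of 421, 412, 334 and 398 at P0 and 45.7, 39.7, 50.3 and 52.2 at P21 (-2.69, SE 0.37; CD-1 -2.50). Tenascin R (Tnr), the one of the mature matrix, had signals of 141, 117, 87.4 and 74.0 at P0 and 255, 293, 219 and 189.6 at P21 (1.09, SE 0.25; CD-1 1.19). Within arrays the log2 difference of Tnr minus Tnc thus moved from -2.20 to -1.47 at P0 to 1.59 to 2.47 at P21, the largest shift among the 19 pairs measured on both sides. The proteoglycan genes Vcan and Ncan fell by 1.66 and 2.36, also in CD-1, and Bcan was not called (0.66), although its other probe set was called higher (0.80). Hapln4 and Hapln2, link proteins of nodes and perineuronal nets, rose by 1.76 and 1.59 (CD-1 2.15 and 1.82), and Sparc, a matricellular protein, rose by 2.68 (CD-1 2.51). Acan, the aggrecan of perineuronal nets, was not called (-0.12) and is named outside the rule for named genes.

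**Figure D5:**
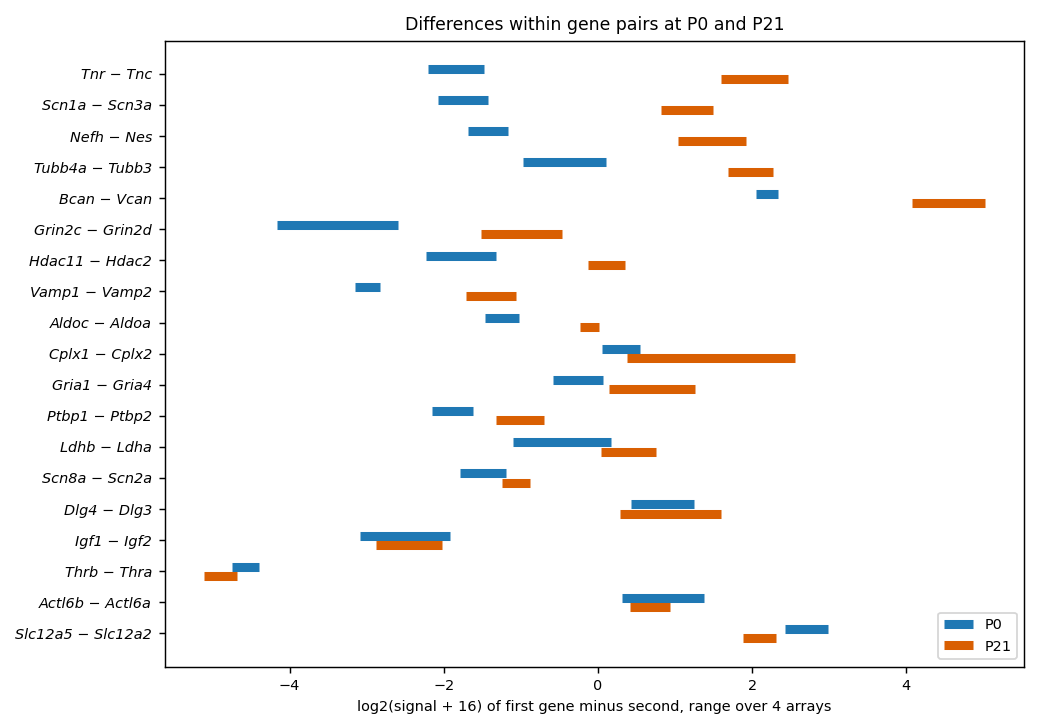
Range over the 4 arrays of the log2 signal difference of 19 gene pairs (first gene minus second) at P0 (blue) and P21 (orange); only the shift between ages is interpretable, since 2 probe sets have no common scale. The ranges of Tnr and Tnc, Scn1a and Scn3a, Nefh and Nes, Tubb4a and Tubb3, Bcan and Vcan and Grin2c and Grin2d are each apart, with higher values at P21.

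In the neuronal cytoskeleton 6 of 37 genes were higher and 19 lower (16.2% and 51.4%), 18 of the latter also in CD-1. The heavy neurofilament gene Nefh, whose product fills mature axons, had signals of 82.4, 86.0, 82.9 and 82.3 at P0 and 494, 418, 403 and 454 at P21 (2.20, SE 0.34; CD-1 2.17), and Nefm rose by 1.56 (CD-1 1.97). Crmp1 and Map6, proteins of growing neurites, fell by 2.55 and 2.45 (CD-1 changes -2.64 and -2.76). Only 1 of the 2 Map6 probe sets was called, and the other was at 0.29. Of 19 tubulin genes 4 were higher and 4 lower, near the shares of all genes (17.8% and 16.8%). Among them, Tuba4a rose by 2.77 and Tubb4a by 0.89, and Tubb3 and Tubb2b fell by 1.68 and 1.59, each also in CD-1. Tubb4a lost its call without both C57Bl/6 P21 arrays (0.57, adjusted p = 0.11). Adhesion genes fell in 17 of 37 and rose in 2, Nfasc, which builds nodes and initial segments, by 1.21 and Igsf8 by 1.56 (CD-1 1.30 and 1.41). The axonal adhesion gene Chl1 fell by 1.62 (CD-1 change -1.37). In the insulin-like growth factor system 5 of 14 fell and 1 rose, and the signalling adaptor Irs1 fell from 738, 772, 816 and 1068 at P0 to 229, 232, 378 and 404 at P21 (-1.43, SE 0.19; CD-1 -1.22).

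Among genes called in both fits and on none of the lists of myelin, precursor, astrocyte and hypothalamic markers, the largest rises included Cryab, a small heat shock protein abundant in oligodendrocytes, which went from 15.1, 22.8, 7.30 and 3.98 at P0 to 627, 703, 656 and 691 at P21 (4.64, SE 0.59; CD-1 5.0). Without the filter on dim genes another Cryab probe set stood for the gene, with a change of -0.22 that was not called. The phosphatase inhibitor gene Ppp1r14a rose by 3.94 from P0 signals of 1.59 on average, near the floor of the array, and the astrocytic receptor gene Gpr37l1 by 3.85. Plekhb1, Ermn, Tmem88b and Pllp rose by 3.56, 3.56, 3.55 and 3.51. Among the largest falls, Vash2, a tubulin carboxypeptidase, went from 407, 398, 462 and 486 at P0 to 27.3, 23.2, 44.5 and 54.7 at P21 (-3.12, SE 0.37; CD-1 -2.90). Islr2, a membrane protein of growing axons, fell by 2.91, the glycosyltransferase gene B3gnt5 by 2.85 and the ubiquitin ligase gene Trim67 by 2.84 (CD-1 changes -3.95, -2.82 and -2.73).

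Few genes passed the adjusted threshold when the difference between strains in the change from P0 to P21 was itself tested. At an unadjusted p under 0.05 (limma) there were 2079 of 13719 genes. That is more than this threshold would pass by chance alone, so the few calls do not show that the strains changed alike. In a limma fit with an age-by-strain interaction 115 genes were called (0.838% of those tested), 80 with a larger log2 change in CD-1 and 35 with a smaller one, and 563 were called without the array labelled C57Bl/6 P42 male. At P21 strain cannot be told apart from the 3' to 5' ratio, which was high on both C57Bl/6 arrays. Tmem87a, a Golgi membrane protein, had signals of 204, 262, 269.8 and 298 at P0 and 19.8, 20.8, 469.8 and 553 at P21. It fell in C57Bl/6 (change -2.77, limma adjusted p = 0.00138 in a fit of the C57Bl/6 arrays alone). In CD-1 it rose (change 0.81, limma adjusted p = 0.00056), a difference between strains of 3.58 (SE 0.42, limma adjusted p = 1.8e-05). The early response gene Fos had signals of 678, 677, 88.6 and 114 at P0 and 519, 457, 599 and 690.4 at P21. It rose in CD-1 by 2.50 (adjusted p = 2.5e-06), was at -0.46 in C57Bl/6 and differed between strains by 2.96 (SE 0.72, limma adjusted p = 0.0432). Alas2, the heme synthesis enzyme of red cells, differed by 3.35 and Tent5c by 2.86, both larger in CD-1 (limma adjusted p = 0.0157 and 0.0188). The red blood cell markers, of which Alas2 is 1 of 5 tested, summed to 78.2 to 421 at P0 and 256 to 386 at P21, and the part of blood in the Alas2 result was not tested. In the other direction, Rec8, a meiotic cohesin, differed by -3.18 and Pttg1, the securin of dividing cells, by -2.56 (limma adjusted p = 0.0497 and 0.0259). The Pttg1 signals were 577, 517, 291 and 534 at P0 and 2421, 1753, 265 and 219 at P21, with both C57Bl/6 arrays at P21 above the other 6. The same test between males and females called no gene at an adjusted p under 0.05 (limma), with 108 genes at an unadjusted p under 0.05. That is fewer than this threshold would pass by chance alone. In this fit strain did not interact with age, so differences between strains in the change with age counted as spread. The test could therefore miss sex differences, and their absence is not shown.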

How the data were processed

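Total RNA of microdissected hypothalamus and preoptic area was amplified in 1 round from oligo-dT primers and hybridised to Affymetrix MOE430 arrays, per the labels' protocols. The deposited intensity (signal) per probe set came from MAS5 in GCOS 1.4, per the submitters' processing notes. MAS5 signals carry no count depth, so precision is limited by the number of arrays. Of 45101 probe sets, 34945 had 1 gene symbol, 932 several, 9160 were not named by the table used and 64 were controls.

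A pseudocount of 16 was added before log2. Each gene was represented by the probe set with the highest mean, and genes above the array median in at least 4 of 48 arrays were tested. limma 3.58.1 in R 4.3.3 (lmFit, eBayes with trend) was fitted to all 48 arrays with age, strain and sex (34 residual degrees of freedom), to the 24 CD-1 arrays, and with age-by-strain and age-by-sex terms, two-sided, with Benjamini-Hochberg adjustment over all genes. The scripts were tested on simulated data. Genes, lists and pairs were chosen with earlier results of these data known. Named genes were the largest rises and falls over all genes, in each list and between strains, list members that were bright and not called, and the pairs. Stk39, Mcm3, Mcm7, Rfc3, Ciart and Acan fall outside that rule and were chosen after their values were seen. Python 3.11.15 drew figures and searched RefSeq promoters.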

Additional observations from a re-analysis of the deposited data

Results flagged for a closer look

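The change from P0 to P21 differed between CD-1 and C57Bl/6, by the test of the difference itself, for 7 of the genes named in the text. The differences (CD-1 minus C57Bl/6, log2) were 3.58 for Tmem87a, 3.35 for Alas2, 2.96 for Fos, 2.86 for Tent5c and 2.15 for Scn2b, and -3.18 for Rec8 and -2.56 for Pttg1.

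Single arrays stood apart from the other 3 of their age for several named genes, by Dixon's test on log2 values, which flags about 1 in 20 groups by chance. On the CD-1 P0 male array the signal stood apart for Cry1 (62.9), Gabra2 (223), Irf1 (122), Isl1 (503), Nefm (178), Scn3a (483), Slc38a2 (763), Thra (2650.0) and Trim67 (233). On the C57Bl/6 P21 female array it did so for Camk4 (203), Mbp (239), Nkx2-1 (29.7) and Stat5b (148). On the C57Bl/6 P21 male array it did so for Cdk1 (24.1), Draxin (59.1), Tap2 (28.0), Tmem88b (576) and Tubb4a (3653). The CD-1 P21 male array stood apart for Gria4 (671) and Neurod6 (20.8), the C57Bl/6 P0 female array for Grin2c (40.2) and the CD-1 P0 female array for Pttg1 (291).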

How the results depend on the processing

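With the beta-actin ratio as a covariate 3110 genes were called, 1434 of them lower, and without both C57Bl/6 P21 arrays, an alternative chosen after seeing the data, 3103 and 1441, against 4745 and 2298. Leaving out 1 array gave 4018 to 4526 calls over all arrays and 2339 to 3018 in CD-1 (1259 to 1696 higher, 1080 to 1322 lower), where the fewest came without the CD-1 P21 male array and 2500 without the CD-1 P21 female array. Without the array labelled C57Bl/6 P42 male, 563 genes differed between strains, 385 upward and 178 downward, against 115. Centring each array on its median gave 2640 higher and 1539 lower, or 63.2% higher against 51.6%. With the 4 series of strain and sex as a replicate block 4741 genes were called, and the block changed no call among the 251 named genes. Of the 209 named genes that were called, 159 kept call and direction under every alternative run. Of 49 that lost a call, 12 did so only in C57Bl/6 alone. Fewer than all probe sets were called for several genes named as changed. Among them, 1 of 2 was called for Map6, Mt1, Htr2c, Slco5a1 and B3gnt5 and 1 of 3 for Atp2b2, Camk4, Hadh, Nfasc and Tef. For Camk2d and Gabrb2 it was 2 of 5 and for Ntrk2 2 of 6. Cryab was at -0.22 with no filter on dim genes, Tent5c at -0.14 in C57Bl/6 alone (also without the array labelled C57Bl/6 P42 male, chosen after seeing the data), and Thra at 0.52 over the mean of its probe sets, and the cause was not tested. With 1 array for each strain and sex at an age, small changes in CD-1 could be missed.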

Other observations

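Complement and innate immune genes were higher in 5 of 14 tested, all 5 also in CD-1, and none was lower (17.8% and 16.8% of all genes). The microglial markers moved with them, 5 of 8 called higher with a summed signal of 1556 to 1842 at P0 and 3851 to 4514 at P21, and their part in these rises was not tested. They included C1qa, a recognition subunit of complement (1.04, limma adjusted p = 0.0328; CD-1 1.18), and Cd59a, which blocks the lytic end of the cascade (1.22, limma adjusted p = 3.8e-06; CD-1 1.10). C1qa lost its call with the beta-actin ratio as a covariate (0.67, adjusted p = 0.29), without both C57Bl/6 P21 arrays (0.53, adjusted p = 0.47), with a pseudocount of 1, with array weights, in C57Bl/6 alone and without the CD-1 P0 female, CD-1 P0 male, C57Bl/6 P21 female or C57Bl/6 P21 male array. In antigen presentation 4 of 16 genes were higher and 2 lower (25.0% and 12.5%), near the shares of all genes. The peptide transporter gene Tap2 had signals of 6.92, 3.16, 4.55 and 5.95 at P0 and 58.7, 28.0, 53.7 and 52.4 at P21 (1.58, CD-1 1.70), and B2m, the light chain of class I molecules, rose by 0.84 (CD-1 1.22). B2m lost its call without both C57Bl/6 P21 arrays (0.96, adjusted p = 0.0633), in C57Bl/6 alone and without the CD-1 P0 female, CD-1 P21 female or CD-1 P21 male array. Growth factor genes and their receptors rose in 7 of 30 and fell in 4 (23.3% and 13.3%), also near those shares. Erbb3, a neuregulin receptor, rose by 1.99 (CD-1 2.01), Fgf1 by 1.53 (CD-1 1.77) and the BDNF receptor gene Ntrk2 by 0.91 (CD-1 1.26).

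Solute carriers, the family of membrane transporters, rose in 50 of 247 genes and fell in 23, and 36 rises and 7 falls held in CD-1. The share that rose, 20.2%, was near the 17.8% of all genes, and 9.31% fell, against 16.8%. Slc39a12, a zinc transporter, had signals of 62.8, 69.9, 102 and 69.5 at P0 and 466, 368, 642 and 723 at P21 (2.59, CD-1 2.79), and Slc24a2, a sodium, calcium and potassium exchanger, rose by 2.22 (CD-1 2.38). Slco5a1, an organic anion transporter family member, fell by 2.0 (CD-1 change -2.07).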
